A study of Mus musculus with 19 samples.

Results

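Zic1, Lhx8, Tbx1, Tbx15, Tmem26, Cited1, Tnfrsf9, Kcnk3, Otop1 and Pm20d1 are 10 genes that the field uses to tell brown from beige fat cells, or to mark thermogenic fat of either kind. They were found by symbol in 3 tables of RNA-Seq values that together list 55740 genes. The table of 7 tissues and the table of brown adipose tissue (BAT) list 10 of the 10 genes, and the table of iWAT, the inguinal depot of subcutaneous white fat, lists 8, without Zic1 and Cited1. How the 13756 genes of the iWAT table were selected is not stated, so a gene that it does not list has no value here rather than a value of 0.

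Classical brown fat cells lie in compact depots such as the interscapular pad and arise from precursors related to those of trunk muscle. Beige fat cells appear within white depots, above all in iWAT, when the animal is cold. Both burn fuel for heat through the uncoupling protein Ucp1, so Ucp1 does not tell them apart, and transcription factors and surface proteins that keep a trace of the cell's origin are used instead.

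The BAT and iWAT libraries came from male WT mice and MCK-Musclin mice, chow-fed, 5 months old and kept at 8 °C for 1 week, with 3 libraries per genotype and depot. MCK-Musclin mice carry the Musclin coding sequence (gene Ostn) under the muscle creatine kinase promoter. Several founder lines were made and backcrossed to C57BL/6J, and which line gave these libraries is not stated. The study describes its RNA-Seq samples as coming from independent animals. The 7 tissues were tibialis anterior (TA) muscle, heart, liver, brain, small intestine, brown adipose and white adipose tissue of chow-fed C57BL/6J WT mice, with 1 library each and therefore no replicate error. The labels name no depot for that white adipose library and no cold exposure for these tissues. The comparisons address whether forced Musclin changes genes of thermogenic fat in the cold.

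Values are FPKM, fragment numbers corrected for exon length and for how many fragments each library had mapped, so levels of different genes can be compared per length. The reads behind a value are unknown, so the p-values weigh a difference against the spread between these libraries and not against counting error. In bulk tissue, fewer cells of a type and less RNA per cell cannot be told apart. The 10 most abundant genes took 48.4% to 51.3% of the summed FPKM in cold BAT and 11.9% to 13.0% in iWAT. These shares are over unlike sets, 55487 genes listed for BAT and 13756 for iWAT. Their effect on the FPKM of other genes was not tested.

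Ostn, the transgene, was listed at 0 in the 3 WT BAT libraries and at 37.9, 31.6 and 30.3 FPKM in the MCK-Musclin BAT libraries. In iWAT it was 0, 0 and 0.22 in the WT libraries and 0, 5.17 and 4.21 in the MCK-Musclin libraries, so the iWAT library labelled MCK-Musclin 1 does not show transgene RNA. The values of Kcnk3, Otop1, Tnfrsf9 and the marker lists in iWAT are therefore also given without it. Fast muscle markers were present in both depots: their median level was 0.0064% to 3.42% of TA muscle in the iWAT libraries, highest in WT library 3, and 0.438% to 1.27% in BAT, highest in MCK-Musclin library 1. In iWAT MCK-Musclin libraries 1, 2 and 3 this median was 0.00728%, 0.110% and 0.132%. The transgene has a muscle promoter, so the Ostn value of 0 does not show that library 1 lacks it. Whether that mouse carried it was not tested. Summed T cell markers were 132 to 196 FPKM in WT iWAT and 257 to 282 in MCK-Musclin iWAT, against 1.42 to 3.02 in BAT. Of the markers tested in iWAT, 8 of 13 T cell, 8 of 8 B cell and 6 of 6 lymph node stroma markers were higher in MCK-Musclin mice at the cutoff used below. Without MCK-Musclin library 1 these counts were 7, 8 and 6. The T cell count fell to 5 without WT library 2, and the stroma count to 3 without WT library 2, WT library 3 or MCK-Musclin library 3. General adipocyte markers were present in every fat library, with Adipoq, the adipocyte hormone adiponectin, at 283 to 325 FPKM in BAT and 849 to 1099 in iWAT.

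Of the 8 genes listed for both cold depots, 3 were higher in BAT, 4 were higher in iWAT, and Lhx8 differed by less than 2-fold. Kcnk3, Otop1 and Pm20d1 were at least 2-fold higher in WT BAT than in WT iWAT. Tbx1, Tbx15, Tmem26 and Tnfrsf9 were at least 2-fold higher in iWAT. With 1 FPKM added instead of 0.1, Tmem26 and Tnfrsf9 were no longer past 2-fold, with log2 ratios of -0.73 and -0.99. With 0.1 FPKM added to the group means, 4.08% of 12216 genes were at least 2-fold higher in BAT and 50.9% at least 2-fold higher in iWAT. These are the genes listed for both cold depots with at least 1 FPKM in either. BAT genes without an iWAT value, such as Zic1, are not among them, so the BAT share may be too low. Within that set, members on the iWAT side stand with a majority of the genes, and members on the BAT side with a small minority. The depots are in tables that were made separately, from RNA extracted in different ways, and depot and table cannot be told apart, so these levels were not tested.

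**Figure D1:**
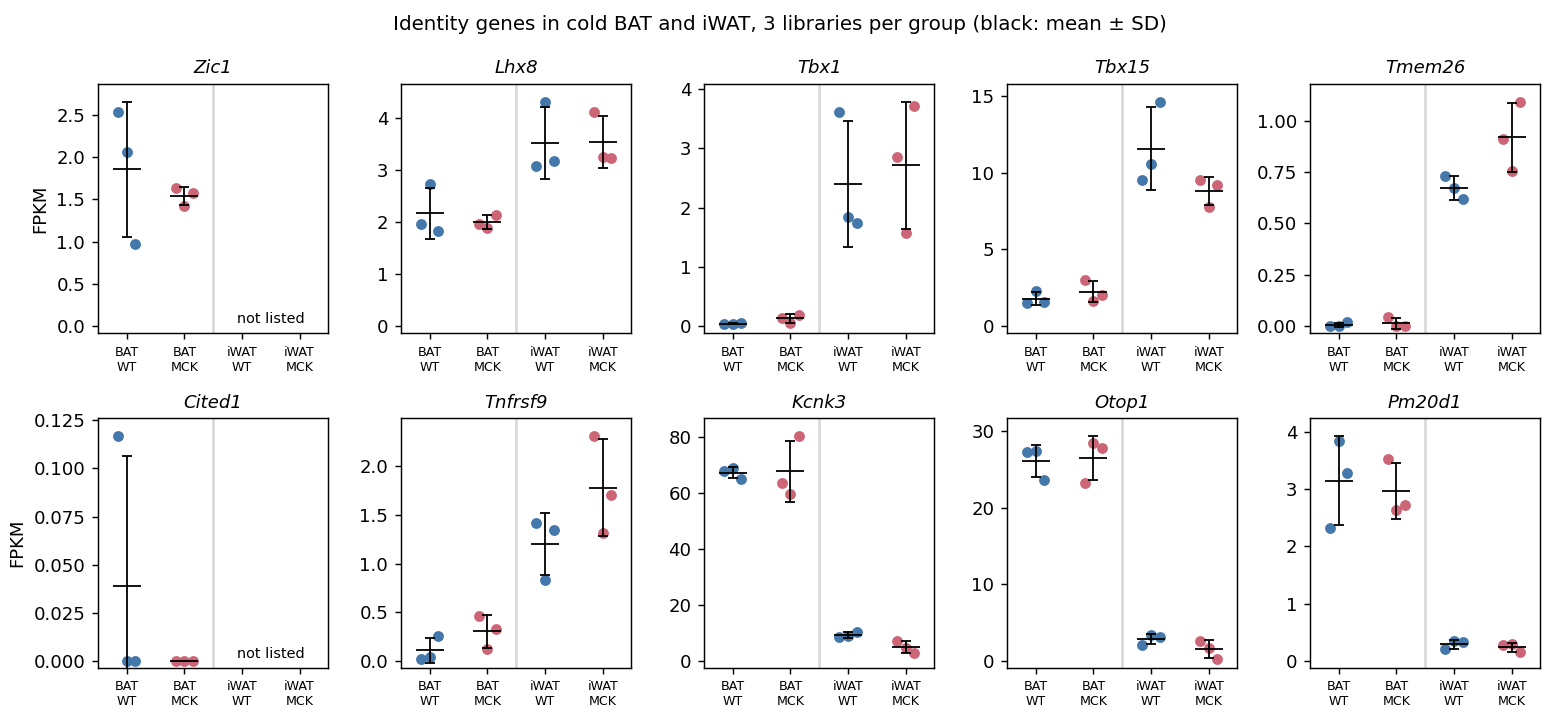
FPKM (y axis, from 0, own scale per gene) of the 10 genes in each of the 3 libraries of cold WT (blue) and MCK-Musclin (red) BAT and iWAT, with the mean and SD in black. Kcnk3, Otop1 and Pm20d1 lie higher in every BAT library than in every iWAT library, and Tbx1, Tbx15, Tmem26 and Tnfrsf9 the other way round.

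The classical brown genes come first. Zic1 is a zinc finger transcription factor of the dorsal midline and of the brown fat lineage, on the minus strand of chromosome 9 from 91358058 to 91365810 (GRCm38, as for all positions here). In cold BAT it was 2.53, 2.06 and 0.97 FPKM in the WT libraries and 1.63, 1.42 and 1.57 in the MCK-Musclin libraries. The 3 MCK-Musclin values lie within the range of the WT values, which spread more. The means were 1.86 ± 0.800 (SD, n = 3) in WT and 1.54 ± 0.108 (SD, n = 3) in MCK-Musclin mice. Its exons share 60 bases with those of Zic4 on the other strand, and the alignment did not use strand. Zic4 itself was low in BAT, at 0.161 to 0.365 FPKM.

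Lhx8, a LIM homeobox transcription factor, lies on the minus strand of chromosome 3 from 154306294 to 154330659. In BAT it was 1.95, 2.72 and 1.82 FPKM in WT and 1.97, 1.87 and 2.14 in MCK-Musclin libraries. In iWAT it was 3.06, 4.30 and 3.16 FPKM in WT and 4.10, 3.24 and 3.23 in MCK-Musclin libraries. Each of the 6 iWAT libraries was thus above each of the 6 BAT libraries, for a gene named as a marker of classical brown fat. The median log2 ratio of BAT to iWAT was -1.02 in WT mice over the genes compared, all listed for both depots. Lhx8, at -0.67, leaned to iWAT less than the median gene of that set. The iWAT mean was 1.59 times the BAT mean in WT and 1.73 times in MCK-Musclin mice, with 0.1 FPKM added. After rescaling to TPM over the genes both tables share, the log2 ratio of BAT to iWAT moved from -0.67 to -0.22.

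The 7 tissues gave another picture of the same gene. Lhx8 was 2.92 FPKM in brown adipose, 2.51 in brain and listed at 0 in the other 5 tissues, white adipose included. Zic1 was 10.8 FPKM in brain, 2.81 in brown adipose, 0.02 in TA muscle and listed at 0 elsewhere. Both genes are transcription factors that also act in the developing nervous system, and brain was the only other tissue in which either reached 1 FPKM. Of 9 brain and nerve markers, 4 to 6 were above 0 in each cold BAT library, with a summed level of 7.84 to 12.7 FPKM.

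Tbx15 and Tbx1 are T-box transcription factors. Tbx15 is expressed in brown and subcutaneous fat and in fast muscle, on the plus strand of chromosome 3 from 99240381 to 99354259. Its iWAT levels were 9.53, 10.5 and 14.6 FPKM in the WT libraries and 9.49, 7.77 and 9.18 in the MCK-Musclin libraries. BAT held 1.53, 2.29 and 1.56 FPKM in WT and 3.02, 1.66 and 2.07 in MCK-Musclin libraries. Each iWAT library exceeded each BAT library, and the ratio of the means with 0.1 FPKM added was 6.17 in WT and 3.8 in MCK-Musclin mice.

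In the 7 tissues Tbx15 was 109 FPKM in TA muscle, which held 97.5% of its FPKM summed over the tissues, and 2.08 in brown adipose. White adipose, at 0.11 FPKM, was far below the cold iWAT libraries. That white adipose library also held 7.47 FPKM of Wt1 and 5.44 of Tcf21, transcription factors of visceral fat that the iWAT table does not list. Its Hoxc10, a gene of posterior body position, was 0.89 FPKM against 17 to 27.8 in iWAT. Wt1, Tcf21 and Hoxc10 were picked after their values were seen. The other Hox genes read were split. Hoxc8 was 205.2 FPKM in the white adipose library and at most 136.3 in iWAT, and Hoxa7 was 40.1 against at most 29.1. Hoxa5 was also higher in the white adipose library. Hoxc9, at 7.13 FPKM against 11.4 to 16.1 in iWAT, and Hoxa9 were lower in it. Which depot that library came from was not tested.

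The libraries with the most muscle markers were also those with the most Tbx15 in each depot. In iWAT WT library 3 the 12 fast muscle markers had a median of 3.42% of their TA muscle level, and that percentage of the TA muscle value of Tbx15 is 3.73 FPKM, against 14.6 measured. The same arithmetic gave 0.71 FPKM in WT library 2 and at most 0.14 FPKM in the other 4 iWAT libraries. In BAT MCK-Musclin library 1 it gave 1.39 of 3.02 FPKM measured, and 0.478 to 1.04 FPKM in the other BAT libraries. The part of muscle RNA in the differences between groups was not tested.

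**Figure D2:**
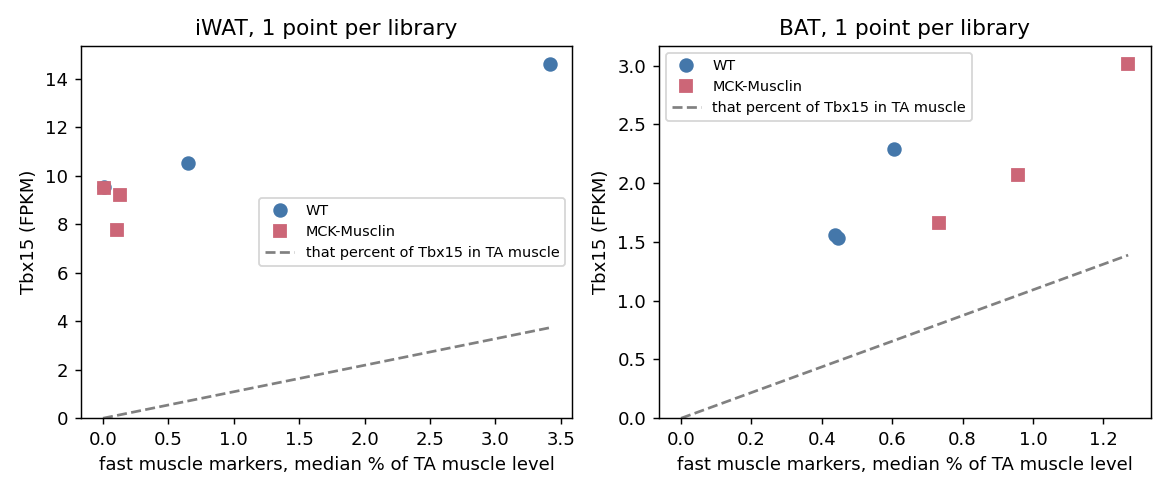
Tbx15 (FPKM, y axis) against the median level of 12 fast muscle markers as a percentage of TA muscle (x axis), 1 point per library, for iWAT (left) and BAT (right). The dashed line is that percentage of the 109 FPKM of Tbx15 in TA muscle, and all 12 libraries lie above it.

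Tbx1, which marks beige precursors and is known from pharyngeal development, lies on the minus strand of chromosome 16 from 18580979 to 18590671. The iWAT libraries held 3.62, 1.84 and 1.73 FPKM in WT and 2.85, 1.57 and 3.71 in MCK-Musclin libraries, with the genotypes overlapping over nearly their whole range. In BAT it reached at most 0.0577 FPKM in WT and 0.197 in MCK-Musclin libraries. The 7 tissues placed it in TA muscle at 15.8 FPKM and in white adipose at 1.57, and listed it at 0 in brown adipose. The percentage of muscle markers times the TA value came to 0.538 FPKM in iWAT WT library 3 and to at most 0.102 in the other iWAT libraries.

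The 3 other beige markers were low. Tmem26, a transmembrane protein used to sort beige cells, lies on the plus strand of chromosome 10 from 68723646 to 68782650. It was 0.729, 0.671 and 0.617 FPKM in WT iWAT and 0.908, 0.754 and 1.09 in MCK-Musclin iWAT, so that each MCK-Musclin library was above each WT library. In BAT it was listed at 0 in 4 of 6 libraries and reached 0.0443 FPKM. None of the 7 tissues exceeded 0.308 FPKM, the value in liver, and brown and white adipose held 0.0851 and 0.219.

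Tnfrsf9, also called CD137, is a costimulatory receptor of activated T cells that is also used as a beige surface marker, on the plus strand of chromosome 4 from 150914562 to 150946102. Levels in iWAT were 1.42, 0.836 and 1.34 FPKM in WT and 2.30, 1.32 and 1.71 in MCK-Musclin libraries, and the groups overlapped by MCK-Musclin library 2. In BAT it was 0.0245, 0.0446 and 0.260 in WT and 0.462, 0.120 and 0.330 in MCK-Musclin libraries. Small intestine was the highest of the 7 tissues, with 0.694 FPKM, and it also had the highest T cell marker Cd3e, at 14.6 FPKM. Within the 6 iWAT libraries, the 3 genes whose pattern was most like that of Tnfrsf9 were Tmem30a, Plxnc1 and Cd5, the last a T cell surface protein. Cd3e itself was 9.57 to 12.3 FPKM in WT iWAT and 0.136 to 0.333 in BAT. In MCK-Musclin iWAT libraries 1, 2 and 3 it was 17.5, 19.2 and 18.8 FPKM. Within that group Cd3e was thus lowest where Tnfrsf9 was highest, and highest where Tnfrsf9 was lowest. The part of T cells in the levels of Tnfrsf9 was not tested.

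Cited1, a transcriptional coactivator that marks beige cells, lies on the minus strand of chromosome X from 102247381 to 102252181. It was listed at 0 in 5 of 6 BAT libraries and at 0.117 FPKM in WT library 1. Brain was the only tissue of 7 above 0, with 0.306 FPKM, and both adipose tissues were at 0. The iWAT table does not list it, so no value for beige fat exists here.

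Kcnk3, Otop1 and Pm20d1 mark thermogenic fat more than 1 lineage. Kcnk3, an acid-sensitive potassium channel also known as TASK-1, lies on the plus strand of chromosome 5 from 30588170 to 30625271, and shares 229 exon bases with the antisense gene Gm9899. It was the highest of the 10 genes in BAT, at 67.8, 68.9 and 64.9 FPKM in WT and 63.3, 59.5 and 80.1 in MCK-Musclin libraries. In iWAT it was 8.57, 8.80 and 10.5 FPKM in WT and 7.10, 4.80 and 3.00 in MCK-Musclin libraries, each below each WT library. WT BAT exceeded WT iWAT 7.18-fold with 0.1 FPKM added, and MCK-Musclin BAT exceeded MCK-Musclin iWAT 13.4-fold. Among the 7 tissues it was 71.1 FPKM in brown adipose, 52.3 in heart, 8.11 in brain and 4.89 in white adipose.

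Otop1, a proton channel, is the most restricted of the 10 genes to brown adipose by share of the 7 tissues. It lies on the plus strand of chromosome 5 from 38275972 to 38304217. Brown adipose, at 11.4 FPKM, held 99.2% of its FPKM summed over the tissues, brain held the rest, and white adipose was at 0. In cold BAT it was 27.3, 27.4 and 23.7 FPKM in WT and 23.3, 28.5 and 27.8 in MCK-Musclin libraries. The iWAT values were 2.15, 3.34 and 3.09 in WT and 2.64, 1.75 and 0.273 in MCK-Musclin libraries, and MCK-Musclin library 1 lay inside the WT range. WT BAT exceeded WT iWAT 8.86-fold with 0.1 FPKM added.

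Pm20d1 is a secreted enzyme that joins fatty acids and amino acids into uncoupling lipids, on the plus strand of chromosome 1 from 131797381 to 131821473. It was 2.31, 3.84 and 3.28 FPKM in WT BAT and 3.52, 2.64 and 2.73 in MCK-Musclin BAT. In iWAT it was 0.204, 0.343 and 0.332 in WT and 0.281, 0.293 and 0.149 in MCK-Musclin libraries, so that the genotypes overlapped in both depots. WT BAT exceeded WT iWAT 8.25-fold with 0.1 FPKM added. Liver, at 11 FPKM, and small intestine, at 4.98, were above brown adipose, at 3.35.

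The order of the levels also differed between the depots, which was not tested, and Zic1 and Cited1 could be ranked only in BAT. In WT BAT, Kcnk3 at 67.2 ± 2.1 (SD, n = 3) and Otop1 at 26.1 ± 2.12 (SD, n = 3) stood clear of the rest. Pm20d1, Lhx8, Zic1 and Tbx15 followed at 3.14, 2.17, 1.86 and 1.79 FPKM, and neighbours among these 4 overlapped between libraries. In WT iWAT, Tbx15 at 11.6 ± 2.69 (SD, n = 3) and Kcnk3 at 9.28 ± 1.03 (SD, n = 3) overlapped, and so did Lhx8, Otop1 and Tbx1 at 3.51, 2.86 and 2.40 FPKM as neighbours. In MCK-Musclin iWAT Kcnk3 lay clear below Tbx15 and overlapped Lhx8, with means of 4.97 and 3.52 FPKM. Otop1, at 1.56 FPKM there, came after Tnfrsf9, at 1.78, with overlapping libraries.

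**Figure D3:**
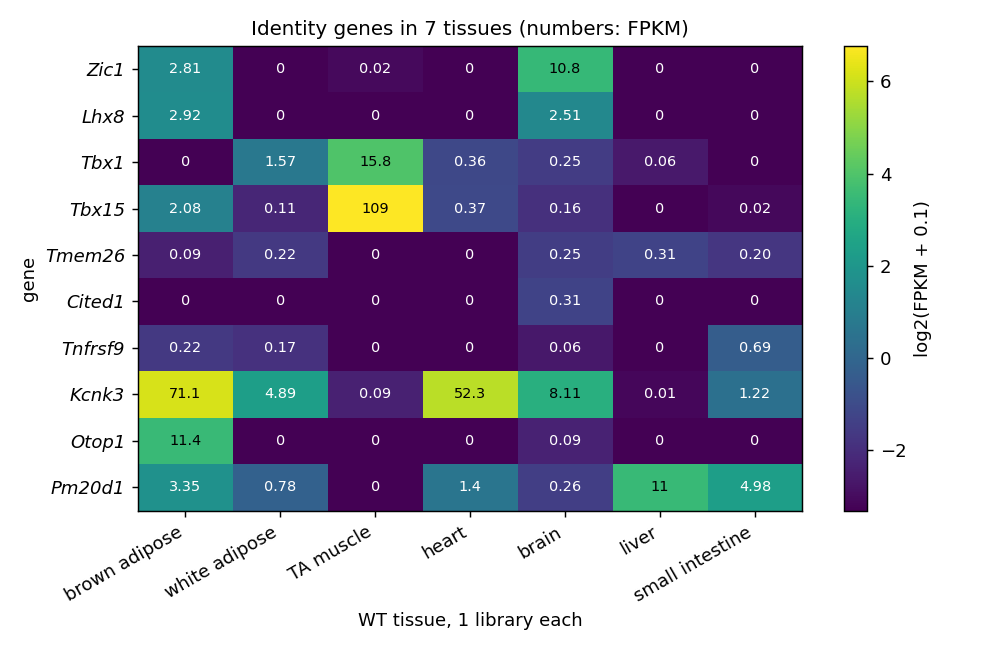
The 10 genes (rows) in 7 WT tissues (columns, 1 library each), coloured by log2(FPKM + 0.1) with the FPKM printed. Otop1 stands almost alone in brown adipose, Tbx15 and Tbx1 peak in TA muscle, and Zic1 and Lhx8 appear in brain and brown adipose.

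In the 7-tissue table, 7 of the 10 genes differed at least 2-fold between the brown and the white adipose library, with 0.1 FPKM added. Zic1, Lhx8, Tbx15, Kcnk3, Otop1 and Pm20d1 were higher in brown adipose and Tbx1 was higher in white adipose. Over the 13503 genes with at least 1 FPKM in either library, 7.02% were at least 2-fold higher in brown and 38.2% at least 2-fold higher in white adipose. Kcnk3 differed 14.3-fold and Pm20d1 3.93-fold, and Zic1, Lhx8 and Otop1 were at 0 in white adipose. Tbx15 was on the brown side here, 10.4-fold, and on the iWAT side in the cold depots. Ucp1 was 467 FPKM in that brown adipose library and 2778 to 3792 in cold BAT, and Otop1 was 11.4 there and 23.3 to 28.5 in cold BAT, while Kcnk3 was 71.1 there and 59.5 to 80.1 in cold BAT. The 2 tables differ in more than temperature, so these values are only set side by side.

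The genotype comparison in iWAT used the study's cutoff, an unadjusted p under 0.05 with a log2 change beyond 0.5, on log2(FPKM + 1) with limma. Of the 6 genes with a mean of at least 1 FPKM, Kcnk3 was lower in MCK-Musclin mice at that cutoff and the other 5 were not at it. Of the 12197 genes tested, 0.902% were lower and 5.04% were higher at the cutoff, 110 and 615 genes. With median-ratio scaling the split was 187 lower and 426 higher, and with centring on general adipocyte markers it was 21 and 2262. No gene had an adjusted p under 0.05 in limma, while 2012 had an unadjusted p under 0.05. The count with an adjusted p under 0.05 was 3018 with centring on general adipocyte markers, 86 when WT library 1 was left out, 2 when MCK-Musclin library 2 was and 1 when MCK-Musclin library 3 was.

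The Kcnk3 means were 9.28 ± 1.03 FPKM (SD, n = 3) in WT and 4.97 ± 2.05 FPKM (SD, n = 3) in MCK-Musclin iWAT. The log2 difference was -0.84 (SE 0.243, 95% interval -1.41 to -0.27), with an unadjusted p = 0.00996 and an adjusted p of 0.181 in limma, while permuting the libraries (exact, two-sided) gave p = 0.1, the lowest value possible for 3 against 3. Without MCK-Musclin library 1, which lists Ostn at 0, the Kcnk3 difference was -1.09, with an adjusted p of 0.192 in limma, and still at the cutoff. It shrank to -0.58 without MCK-Musclin library 3, with an adjusted p of 0.372 in limma. With centring on general adipocyte markers it was -0.60 (95% interval -1.19 to -0.006). Both were at the cutoff. Otop1 had means of 2.86 ± 0.629 and 1.56 ± 1.20 FPKM (SD, n = 3 each) and a log2 difference of -0.71 (SE 0.367, 95% interval -1.57 to 0.15), with an adjusted p of 0.377 in limma and p = 0.2 in the exact permutation test. Without MCK-Musclin library 1, Otop1 was at the cutoff too, with a log2 difference of -1.03 and an adjusted p of 0.247 in limma, among 178 genes lower and 699 higher of 12182. Without MCK-Musclin library 3 its difference was only -0.27.

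For both channels, MCK-Musclin library 1 was the highest of its group and library 3 the lowest, an order that 12 of 16 genes shared by brown and beige thermogenesis also had. Ucp1 was 130, 248 and 346 FPKM in WT iWAT and 173, 31.6 and 2.91 in MCK-Musclin libraries 1, 2 and 3, so library 1 lay inside the WT range, as it did for Otop1. Cidea, a lipid droplet protein of brown and beige cells, was 290, 358 and 427 FPKM in WT and 294, 103 and 70.2 in MCK-Musclin libraries. Of these 16 genes, 10 were lower at the cutoff and 0 higher, with a median log2 difference of -1.16 against 0.06 over all genes tested. The 4 with the smallest p were Fabp3 (-2.54), a fatty acid carrier of oxidative tissues, Cidea (-1.45), Elovl3 (-1.76), a fatty acid elongase, and Cpt1b (-1.44), which brings fatty acids into mitochondria. The count rested on single libraries: it was 13 without MCK-Musclin library 1, with a median of -1.55, and 12 without WT library 1, but 4 without WT library 2, 3 with MCK-Musclin library 2 left out, 2 with MCK-Musclin library 3 left out and 1 with WT library 3 left out. General adipocyte markers moved in the same direction by less: 11 of 12 were lower on average, 4 with an unadjusted p under 0.05 in limma and 1 at the cutoff, with a median log2 difference of -0.20. Their part in the lower thermogenic genes was not tested.

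The transcription factors and surface markers did not reach the cutoff in iWAT. Lhx8 differed by 0.01 on the log2 scale (95% interval -0.34 to 0.36), and Tbx1 by 0.13 (95% interval -0.53 to 0.79). Tbx15 differed by -0.34 (95% interval -0.72 to 0.05), and by -0.17 without WT library 3, the library rich in muscle markers. Without WT library 1, which held almost no muscle markers, it was -0.46 (95% interval -0.86 to -0.05). Without any other single library it lay between -0.39 and -0.26. It was -0.41 both with TPM and with median-ratio scaling, with 95% intervals below 0, and -0.10 with centring on general adipocyte markers. Tnfrsf9 differed by 0.33 (95% interval -0.09 to 0.75), by 0.20 without MCK-Musclin library 1 and by 0.21 without WT library 2. It differed by 0.41 without WT library 1 and by 0.46 without MCK-Musclin library 2. With centring on general adipocyte markers it was 0.57 and at the cutoff, under which the median of all genes moved from 0.06 to 0.30. Their adjusted p in limma was 0.350 for Tbx15, 0.399 for Tnfrsf9, 0.857 for Tbx1 and 0.981 for Lhx8. Tmem26 and Pm20d1 were below 1 FPKM and differed by 0.19 and -0.06 when no filter was applied. Of the 6 members tested in iWAT, Kcnk3 and Tbx15 had no overlap between genotypes, where 23.3% of the genes tested had none. Tmem26, below the filter and not tested, had none either.

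**Figure D4:**
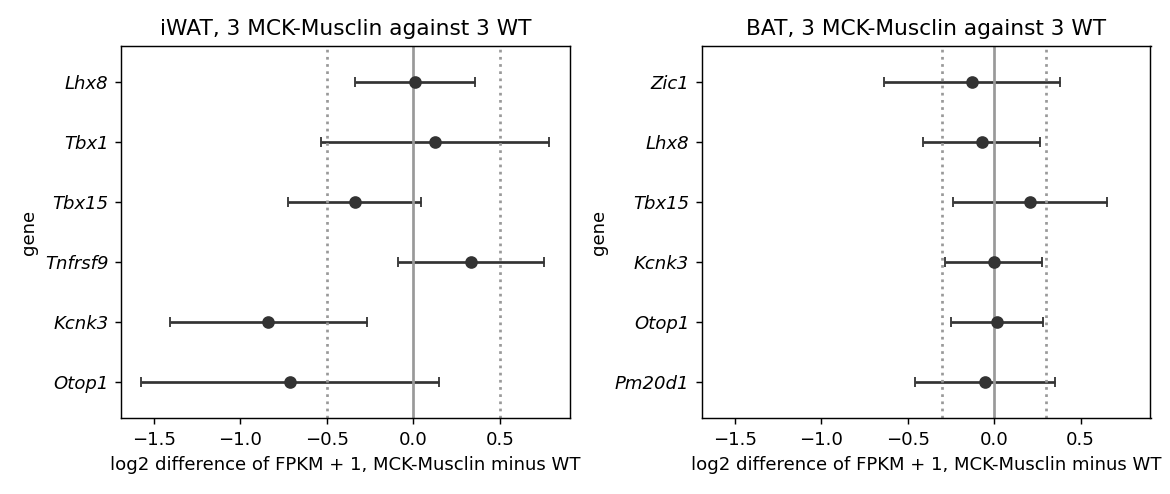
Log2 difference of FPKM + 1 between MCK-Musclin and WT mice (x axis) with its 95% interval from limma, for the 6 genes tested in iWAT (left) and the 6 in BAT (right). Dotted lines mark the cutoff of 0.5 in iWAT and 0.3 in BAT, and only Kcnk3 in iWAT has an interval that leaves out 0.

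In BAT, no member differed between genotypes at the study's cutoff there, an unadjusted p under 0.05 in limma with a log2 change beyond 0.3, and 0 of the 6 tested had such a p. Of the 10893 genes tested, 2.15% were lower and 1.85% higher at it, 234 and 202 genes, and 1 gene had an adjusted p under 0.05 in limma. Kcnk3 differed by 0.00 on the log2 scale (95% interval -0.28 to 0.28) and Otop1 by 0.02 (95% interval -0.25 to 0.28). Pm20d1 differed by -0.05 (95% interval -0.46 to 0.35) and Lhx8 by -0.07 (95% interval -0.41 to 0.27). Zic1 had the widest interval, -0.64 to 0.38 around -0.13, and without WT library 3 it was at the cutoff with -0.37. Tbx15 differed by 0.21 (95% interval -0.24 to 0.65), and by 0.04 without MCK-Musclin library 1, the BAT library richest in muscle markers. Without other single libraries it lay between 0.14 and 0.34. Their adjusted p in limma was between 0.968 and 0.999. Tbx1, Tmem26, Cited1 and Tnfrsf9 were below the filter of 1 FPKM. None of the 10 genes separated the genotypes without overlap, where 5.63% of the genes tested did so with lower and 4.38% with higher values in MCK-Musclin mice.

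Beside these, 11 of 12 fast muscle markers were higher in MCK-Musclin BAT at the cutoff, with a median log2 difference of 0.85, and their sum was 527 to 832 FPKM in WT and 871 to 1855 in MCK-Musclin libraries. Leaving out WT library 1 gave 6 of them and leaving out WT library 3 gave 7. In iWAT 12 of 12 were lower on average but 0 were at the cutoff, and the sum was 11.2, 859 and 4832 FPKM in the WT libraries and 11.5, 164 and 195 in the MCK-Musclin libraries. Without WT library 1, which held almost none, 12 of 12 were lower at the cutoff.

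Whether the genotype effect differed between depots was asked in 1 model over the 9757 genes that passed the filter in both tables. Of the 4 members in it, 0 had an adjusted p under 0.05 in limma, and so did 0% of all genes, while 10.1% had an unadjusted p under 0.05. Kcnk3 was the 1 member among these, with an effect in iWAT minus that in BAT of -0.84 on the log2 scale (SE 0.292, 95% interval -1.47 to -0.20) and an adjusted p of 0.425 in limma. Otop1 differed by -0.73 (95% interval -1.65 to 0.19), Tbx15 by -0.55 (95% interval -1.12 to 0.03) and Lhx8 by 0.08 (95% interval -0.36 to 0.52). The Otop1 value was -0.29 without iWAT MCK-Musclin library 3 and -1.05 without iWAT MCK-Musclin library 1, with an adjusted p of 0.329 in limma for the latter. The Kcnk3 value without that library was -1.08, with an adjusted p of 0.193 in limma. It was -0.58 without iWAT MCK-Musclin library 3, and -0.62 with centring on general adipocyte markers (95% interval -1.28 to 0.04). The lower Kcnk3 of MCK-Musclin iWAT was thus not shown to be particular to iWAT after adjustment.

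Other genes of the same kinds were read from lists. Of 12 other brown fat marker genes, 9 were tested in iWAT and 1 was lower at the cutoff, P2rx5, a purinergic receptor channel, with a log2 difference of -0.55. In BAT 8 were tested and 1 was higher, Hspb7, a small heat shock protein of heart and muscle, with 1.29. Of 13 other beige fat marker genes, 12 were tested in iWAT and 3 were higher, Cd40 (0.85), a receptor that B cells also carry, and Sp100 (0.69) and Epsti1 (0.56), which interferon induces. None of the 10 tested in BAT was at the cutoff. Median log2 differences were -0.31 for the brown list and -0.01 for the beige list in iWAT, and 0.02 for both in BAT.

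Of 15 white fat and depot position genes, 0 of 13 tested in iWAT and 0 of 9 in BAT were at the cutoff. Leptin (Lep) and Hoxc10 had the largest differences in iWAT, -0.41 and -0.38. Of 21 close relatives and partners of the 10 genes, 1 of 10 tested in iWAT was lower at the cutoff, Cited2, a coactivator of the same family as Cited1, with -0.53. None of the 6 relatives tested in BAT was. In BAT, 1 of 16 thermogenic genes was lower at the cutoff, Cox8b, a cytochrome c oxidase subunit, with -0.35.

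Between cold WT depots, 13 of 16 thermogenic genes were at least 2-fold higher in BAT and 0 in iWAT. Their median log2 ratio was 3.13, against -1.02 over the genes compared, all listed for both depots. The other brown list split 4 and 1 of 9, and the other beige list 0 and 7 of 12. Of the white fat and depot position genes, 1 was higher in BAT and 12 in iWAT, of 13. Kcnk3, Otop1 and Pm20d1, with log2 ratios of 2.84, 3.15 and 3.04, lay close to the median of the thermogenic list, and Tbx15, Tnfrsf9 and Tmem26, with -2.62, -2.63 and -2.86, lay between the medians of the beige list, -1.87, and of the depot position list, -4.20.

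Genes with the most similar pattern were named by Pearson's r for each member read here, as a description over few libraries. Tissue makeup varies over these libraries and can move many genes together. Each member read had genes at a high r, so a high r alone singles out no gene. Over the 7 tissues and 18262 genes, Ucp1 was among the 3 genes most like Otop1 (r = 0.995). Tbx15 was most like Cacng1 (r = 0.988), a subunit of the skeletal muscle calcium channel, Vgll2 (r = 0.974) and Sim2 (r = 0.974). Tbx1 was most like Nudt4 (r = 0.976), Prkag3 and Ankrd2 (r = 0.969), and the latter pair are genes of skeletal muscle. Magel2 (r = 0.996) was among those most like Zic1, Rnf182 (r = 0.994) among those most like Lhx8, Rhot1 (r = 0.971) was first for Kcnk3 and F2r (r = 0.984) first for Pm20d1.

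Over the 6 iWAT libraries, Kcnk3 was most like Cul3 (r = 0.998), Nrg4 (r = 0.994), a growth factor that thermogenic fat secretes, and Hadhb (r = 0.993), an enzyme of mitochondrial fatty acid oxidation. Otop1 was most like Poln (r = 0.999), Tbx15 most like Nol4l (r = 0.998), Tnfrsf9 most like Tmem30a (r = 0.998), Lhx8 most like Elp4 (r = 0.984) and Tbx1 most like Nipbl (r = 0.983). Over the 6 BAT libraries, Tbx15 was most like Hjv (r = 0.999), Nsrp1 (r = 0.991) and Smpx (r = 0.986), and Hjv and Smpx are genes of striated muscle. Zic1 was most like Med6 (r = 0.993), Lhx8 most like Tenm4 (r = 0.987), Otop1 most like Prrc2b (r = 0.994), Kcnk3 most like Gaa (r = 0.984) and Pm20d1 most like Elovl1 (r = 0.980).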

How the data were processed

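The authors filtered reads with fastp and bowtie2, aligned them to mm10 (GRCm38) with HISAT2 2.1.0 without strand and deposited FPKM per gene, by StringTie in the methods, while the submitters' notes name Cuffdiff. The authors' comparison columns in the iWAT table (log2 change, p-value, FDR and group means) were not used. Groups came from the labels. Repeated lines, 287 in 2 tables, were used once. Positions are from GENCODE.

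MCK-Musclin and WT were compared on log2(FPKM + 1) by limma 3.58.1 (trend) in R 4.3.3, for genes whose 6 libraries averaged 1 FPKM or more, with Benjamini-Hochberg adjustment, after tests on simulated data. An exact permutation test of 3 against 3 libraries cannot go below p = 0.1. Ratios between depots or tissues add 0.1 FPKM.

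The 10 genes and the 14 lists, which overlap, were chosen with earlier results of these data known. From each list, up to 4 genes at the cutoff with the smallest p, or else up to 2 with the largest change, could be named, and up to 3 genes with the most similar pattern per member. Macrophage markers were at the cutoff in 1 of 8 tested in iWAT and 1 of 7 in BAT, both higher. None of the brain and nerve, endothelial and adipose progenitor markers was at it in either depot, and 1 of 12 general adipocyte markers was, lower in iWAT. In BAT the T and B cell markers were below the filter.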

Additional observations from a re-analysis of the deposited data

How the results depend on the processing

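Alternatives were other pseudocounts and filters, TPM, median-ratio scaling, centring on adipocyte markers, other eBayes settings, a replicate block, the other depot's cutoff, an adjusted p, and leaving out each library. Leaving out each library for the counts of the marker lists was chosen after seeing the data. The count of members at the iWAT cutoff was 1, became 2 with centring on general adipocyte markers (Kcnk3 and Tnfrsf9) and 0 with an adjusted p, and ranged from 1 to 2 without single libraries. In BAT it was 0 and ranged from 0 to 1 without single libraries. The difference between depots kept 0 members throughout. With the replicate number as a block the counts were 1 in iWAT and 0 in BAT, with 154 genes lower and 620 higher in iWAT. Deviations of same-numbered libraries correlated at 0.235, 0.0615 and 0.107 in iWAT and at -0.0951, -0.00464 and 0.00937 in BAT, so the numbers were not taken as pairs.

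In the 7-tissue libraries the log2 ratio of brown to white fat turned to 4.92 for Lhx8, which white adipose lists at 0, 3.37 for Tbx15 and 0.21 for Tnfrsf9, and the cause was not tested. Small log2 differences changed sign: Lhx8 in iWAT to -0.0364 with TPM and -0.0525 with median-ratio scaling, and Kcnk3 in BAT to 0.024 with TPM, 0.0022 with median-ratio scaling and 0.0194 with centring. Without single libraries, differences ranged in iWAT from -0.0799 to 0.132 for Lhx8 and from -0.0671 to 0.370 for Tbx1. In BAT they ranged from -0.372 to 0.0481 for Zic1, -0.148 to 0.0515 for Lhx8, -0.129 to 0.0829 for Kcnk3, -0.0482 to 0.106 for Otop1 and -0.206 to 0.0676 for Pm20d1, and Lhx8 between depots went from -0.0421 to 0.202. FPKM hides read counts, so the counting error of members near or below 1 FPKM is unknown.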
